A study of Mus musculus with 3072 samples.

Results

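The cells described here are the cortical microglia of male C57BL/6 mice, aged 18 months, in which Apoe, which encodes apolipoprotein E, had at least 1 sequencing read. They were chosen by that measured value: a raw Apoe count of 1 or more put a cell in the set, and the cells of the same group with a count of 0 were set against it. They made up 31.6% of the group's cells with counts, in a series of 1878 cells and 29474 genes. By the labels' plate numbers 1 to 4, each a part of the group's wells, they numbered 13, 23, 27 and 40, and the cells without an Apoe read 39, 60, 61 and 63. C57BL/6 mice carry no amyloid transgene and were, with C57BL/6-ApoeKO mice that lack Apoe, the controls of a study of microglia around plaques in APP/PS1 mice. Single live cells were sorted as CD11b+ and DAPI-negative, CD11b being a surface integrin of myeloid cells, and their RNA was read with a modified SmartSeq2 protocol, in which each cell has its own well and molecules are not tagged one by one. Used beside them were the C57BL/6-ApoeKO cortex cells (males of 18 months, from the same 2 sequencing lanes, 37 and 38) and the APP/PS1 cells of males of 17 months that have Apoe, from cortex and from hippocampus, read in lanes 41 and 42. APP/PS1 mice carry the APPswe and PS1dE9 transgenes.

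Which mouse a cell came from is not in the labels, and each group was therefore treated as 1 sample. No test between the sides was possible, and everything below is a description of these cells. Intervals are exact 95% intervals that cover counting error only. Reads of 1 well are copies made by PCR and cells may share a mouse, so the intervals are too narrow for a statement about mice.

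Apolipoprotein E packs cholesterol and phospholipid into particles that cells take up through lipoprotein receptors and through TREM2. In the healthy brain most of it is made by astrocytes, and resting microglia make little. Around amyloid plaques microglia lower the genes of their resting state (Cx3cr1, P2ry12, Tmem119) and raise Apoe with Clec7a, Axl, Lpl, Cst7 and Itgax, a state known as the activated or disease-associated response. Apoe lies on mouse chromosome 7 (mm10, 19696109 to 19699188, minus strand), just beside the apolipoprotein genes Apoc1, Apoc4 and Apoc2.

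Apoe was read in 31.6% of the C57BL/6 cells (95% interval 26.6 to 36.9%). In lane 37 it was read in 43 cells, or 26.5% (19.9 to 34.04%), and in lane 38 in 60 cells, or 36.6% (29.2 to 44.5%). The lanes' intervals overlap, and the wells of the group split by lane and plate number gave shares from 25% (13 of 52 and 3 of 12 cells) to 40.9% (36 of 88 cells). A background was measured in the same lanes in the cells without the gene: 5 C57BL/6-ApoeKO cells held reads named Apoe, or 1.60% (0.521 to 3.69%), of which 3 had 1, 1 and 5 reads and the highest had 414 reads (533 RPM, reads of a gene scaled to 1000000 reads of the cell). The share in C57BL/6 cells was above that of the knockout cells in lane 37 (1.27%) and in lane 38 (1.92%).

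Read depth differed little between the sides. The median cell with an Apoe read held 790531 reads and 2353 genes, and the median cell without one 738302 reads and 2221 genes. The ranges overlapped almost wholly, from 133841 to 1297860 reads against 116605 to 1320640. By depth, Apoe was read in 24.8% of the cells with fewest reads, when the cells were ranked by depth and split in 3, in 33.3% of the cells of middle depth and in 36.7% of the deepest. After each cell was thinned to 100000 reads, Apoe was still read in 97 cells, or 29.8% (24.8 to 35.04%), and in 0.974% of the knockout cells deep enough to thin. In lane 37 the median depths were 762888 and 738302 reads, and in lane 38 they were 831380 and 738758 reads, with the cells that have an Apoe read higher in both. The thinned cells with an Apoe read also held more genes, with medians of 2025 and 1917. Median shares of ribosomal RNA (10.6% and 9.67%), of mitochondrial messenger RNA (0.978% and 0.860%) and of ribosomal protein messenger RNA (1.22% and 1.09%) were slightly higher in the cells with an Apoe read. The part of these differences in the results below was not tested, except where values from thinned cells are given.

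Where Apoe was read, the level varied widely. Among the cells with a read it ran from 0.955 to 23932 RPM, with a median of 744 RPM and quartiles of 322.95 and 1931 RPM. These levels chose the cells and are given as a description. At the edge of the rule stood 7 cells with 1 read and single cells with 3, 7 and 9 reads, and the next cell had 15 reads, while all cells just outside had 0. Low counts of 1 to 9 reads were found in 3.07% of the C57BL/6 cells and in 0.958% of the knockout cells, so some of these 10 cells cannot be told apart from background. The other 93 cells, 28.5% of the group, had at least 59.1 RPM. Apoe was unevenly spread: 40 cells were above 1000 RPM, 14 cells held 50% of all 117183 Apoe reads, and the cell with most reads held 9.91% of them. The median was 665 RPM in lane 37 and 823 RPM in lane 38. In APP/PS1 microglia both numbers were larger: Apoe was read in 92.3% of cortical and 86.1% of hippocampal cells, with medians of 8298 and 4706 RPM in the cells that had it. The APP/PS1 mice were 1 month younger and their cells were read in other lanes, so that genotype, age and lane cannot be told apart here.

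**Figure D1:**
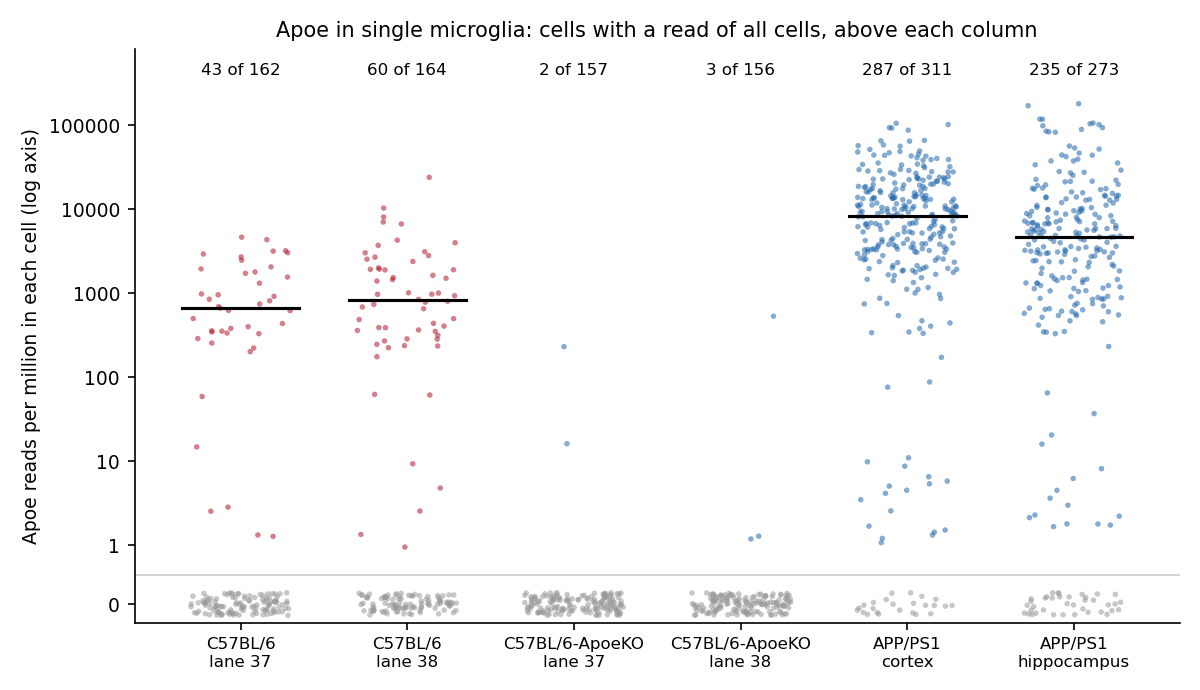
Each point is 1 cell and the vertical axis is its Apoe level in RPM on a log axis, with cells without a read in grey at 0; the bar is the median of the cells with a read, drawn for columns with at least 10 such cells, and the counts above give cells with a read of all cells. In both lanes the medians of the C57BL/6 cells with a read lie near each other, at 665 and 823 RPM, the knockout cells are almost all at 0, and the APP/PS1 cells lie higher.

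The cells with an Apoe read were microglia by their markers. Each of the 10 microglia identity genes was read, and every cell with an Apoe read held at least 3 of them. Cx3cr1, the fractalkine receptor, was at 12441 RPM against 12817 RPM in the cells without an Apoe read. P2ry12, the purine receptor that steers microglial processes, was at 6161 against 6767 RPM. Tmem119 had 3763 and 3897 RPM. Single markers of other cells were read on both sides, and several markers of 1 kind in few cells. At least 1 of 13 border macrophage markers was read in 75.7% of the cells with and 71.3% of the cells without an Apoe read, with median sums of 247.9 and 245.5 RPM. For 10 astrocyte markers the shares were 59.2% and 53.8%, for 9 oligodendrocyte markers 39.8% and 37.2%, and for 9 neuronal markers 7.77% and 8.52%. For monocyte markers they were 10.7% and 5.38%, for B cell markers 6.80% and 6.28%, for neutrophil markers 4.85% and 2.69%, for vessel markers 6.80% and 12.1%, for choroid plexus markers 0.971% and 3.14%, and for T or NK cell markers 0% and 1.35%. Of these markers, Ly6c2 (monocytes), Ly6g (neutrophils), Gja1 (astrocytes), Mog (oligodendrocytes) and Ttr (choroid plexus) were at 0 on both sides. Gfap (astrocytes) was at 0 only in the cells with an Apoe read. Astrocytes express Apoe strongly, and cells with reads of at least 3 of 10 astrocyte markers numbered 0 with and 2 without an Apoe read. The summed astrocyte markers had a median of 60.7 RPM per cell (0 to 2566) with and 6.37 RPM (0 to 2423) without an Apoe read. Of these markers the glutamate transporter gene Slc1a3 had the highest level, at 315.2 and 267.04 RPM. The astrocyte gene S100b was at 0 on both sides, and Aldh1l1 only in the cells with an Apoe read. The part of other cells in the results was not tested. Border-associated macrophages, the other Apoe-rich myeloid cells of the brain, are marked by genes such as Mrc1, Pf4 and Cd163. One cell with an Apoe read held 5 of 13 such markers, with 4 reads of Mrc1, 1 each of Pf4, Cd163 and Cbr2, and 8 of Stab1, beside 10934 reads of Cx3cr1. Of 40 markers of astrocytes, neurons, oligodendrocytes, vessels and choroid plexus, at least 1 was read in 79.6% and 75.8% of the cells and at least 3 in 10.7% and 13.5%, with median sums of 300.7 and 258.1 RPM.

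Over all genes the sides were much alike. A ratio was taken for the 6031 genes that reached 20 RPM and 10% of the cells on 1 side. Of these, 230 (3.81%) had a level 2-fold or more above that of the cells without an Apoe read, and 5.59% were 2-fold or more below. Ratios are of reads summed over the cells of a side, in RPM, with 0.5 RPM added. Genes past 2-fold were mostly ones caught in few cells: 88.7% of the higher and 87.2% of the lower ones were read in under 25% of the cells on both sides. The same share over all 6031 genes was not counted, so sparseness cannot be called particular to the genes past 2-fold. Among 738 genes read in at least 50% of cells on both sides, log2 ratios ran from -1.85 to 0.69, and 2 genes passed 2-fold. These were Slx1b, a subunit of a DNA junction nuclease, at 5.37 against 20.6 RPM, and Fnbp1, a membrane-bending protein gene, at 113.6 against 242.6 RPM, both named after their values were seen. The lanes agreed little in direction: 3103 of the 6031 genes lay on the same side of 1 in both lanes. Lanes with unrelated signs would give about as many. In both lanes at once, 65 genes (1.08%) were 2-fold or more above and 2.42% of the genes below. In the wider set of 12466 genes with at least 1 RPM, 5534 lay above and 6932 below a ratio of 1. Past 2-fold, 10.1% lay above and 18.1% below, and the median log2 ratio was -0.09. Of those genes 4.57% had no read in the cells with and 0.914% none in the cells without an Apoe read, and the lists below are read against these shares. These counts differed with the cells used: 622 and 742 genes passed 2-fold in lane 37 alone and 511 and 705 in lane 38 alone. When each gene's cell with most reads was left out on each side, the higher genes made up 24.2% of those past 2-fold, against 40.6% with all cells.

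**Figure D2:**
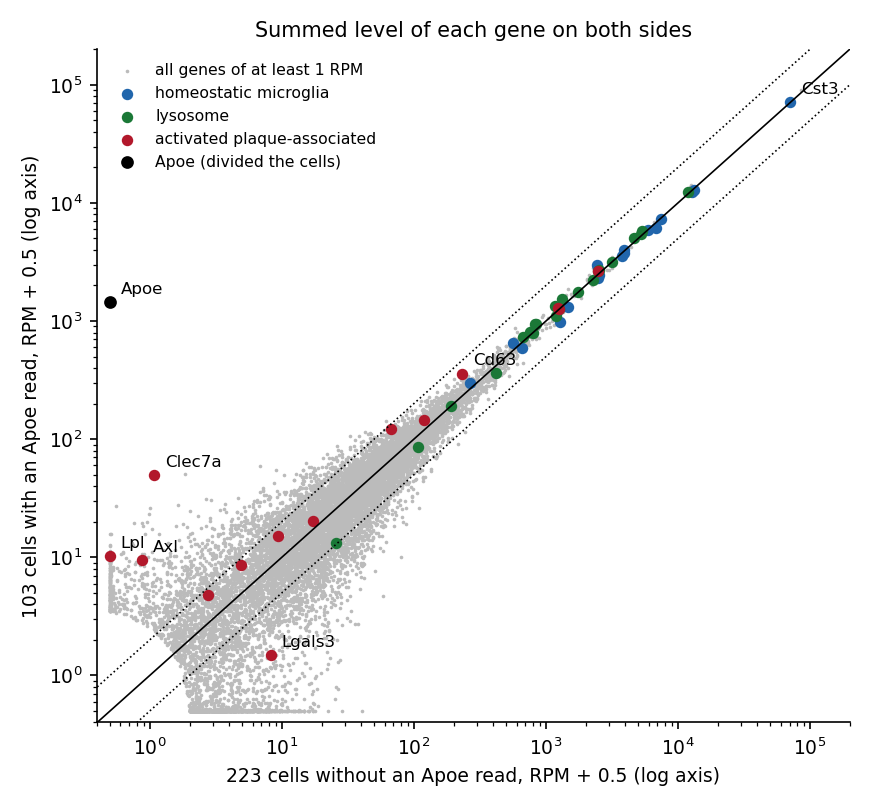
Each point is 1 gene with at least 1 RPM, the horizontal axis its summed level in the cells without and the vertical axis in the cells with an Apoe read, both in RPM plus 0.5 on log axes; the solid line is equality and the dotted lines are 2-fold. The homeostatic and lysosomal genes, in blue and green, lie near equality, and Clec7a, Lpl and Axl lie far above it at low levels.

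The genes of the resting state were at like levels on both sides. Of 17 homeostatic genes, 6 were above and 11 below a ratio of 1, none passed 2-fold, and the median log2 ratio was -0.04, or -0.01 in lane 37 and -0.09 in lane 38. The widest of these differences were Fcrls, an Fc receptor-like gene of microglia, at 976 against 1273 RPM, and Olfml3, at 2960 against 2449 RPM. Of 12 measured myeloid transcription factors, 10 were above 1 with a median log2 ratio of 0.22, or 0.31 in lane 37 and 0.03 in lane 38. Among them were Sall1, the factor that sets microglial identity, at 655 against 567 RPM, and Irf8 at 692 against 586 RPM. TGF-beta signalling, which maintains resting microglia, had a median of -0.06 over 8 genes. Its mediator Smad3 was at 164.7 against 97.1 RPM, a log2 ratio of 0.76 that was 1.80 in lane 37 and 0.01 in lane 38.

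Over both lanes most genes of the activated response had higher values in the cells with an Apoe read, and most were read in very few cells. Of the 19 genes of the list, 14 had at least 1 RPM, and 13 of these were above 1 and 1 below. Over all 12466 genes of at least 1 RPM, 5534 were above and 6932 below. Clec7a, Axl and Lpl were at least 2-fold higher and Lgals3 was at least 2-fold lower, beside 10.1% and 18.1% of all genes. The median log2 ratio was 0.66 against -0.09 over all genes of at least 1 RPM. Lane 38 gave a median of 0.80, with 12 genes above and 2 below 1, and lane 37 one of 0.08, with 8 above and 5 below. It was 0.31 without plate number 4 and 0.33 when each gene's cell with most reads was left out on each side.

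Clec7a encodes the beta-glucan receptor Dectin-1 and marks plaque-associated microglia (chromosome 6, 129461591 to 129472779, annotated as a polymorphic pseudogene). It was read in 7 cells with and in 1 cell without an Apoe read, at 49.2 and 0.585 RPM. The 7 cells had from 199.9 to 2644 RPM, with 494 RPM in the middle, and the 1 cell on the other side 157.3 RPM. After thinning the shares were 6.80% (2.78 to 13.5%) and 0.448% (0.0114 to 2.47%). The shares differed in the same direction in lane 37 (3.81 points) and in lane 38 (8.33 points).

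Axl, a receptor that binds the bridging protein Gas6 on dying cells (chromosome 7, 25757273 to 25788705), was read in 5 and 2 cells, at 8.98 and 0.373 RPM. A single cell of lane 37 held 85.95% of the reads on the side with Apoe. The 5 cells had 3.44, 13.6, 18.97, 164.9 and 926 RPM, and the 2 cells without an Apoe read 4.64 and 59.1 RPM. All 5 were among the 40 cells above 1000 RPM of Apoe. Lpl, lipoprotein lipase (chromosome 8, 68880491 to 68907448), was read in 3 cells with an Apoe read, all in lane 38, at 217.9, 260 and 340 RPM. All 3 had up to 1000 RPM of Apoe, and the cell with 340 RPM of Lpl had a single Apoe read. Lpl was read in 0 of the cells without an Apoe read. This allows a share of up to 1.35% by a limit of 3 counts, and up to 1.64% by the exact interval after thinning. Cst7, the cathepsin inhibitor cystatin F, was in 3 and 5 cells, and Itgax, the integrin CD11c, in 8 and 12 cells. Their levels were 8.17 against 4.38 RPM and 19.9 against 16.9 RPM. Lgals3, galectin-3, was in 1 cell on each side, at 0.989 and 7.85 RPM, and its log2 ratio was -2.49 in all cells and 2.06 in lane 38. Spp1 and Igf1 had no read in the cells with an Apoe read.

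Cd63, the gene of a tetraspanin of late endosomes and lysosomes, differed most in how many cells had it (chromosome 10, 128900989 to 128912822). After thinning it was read in 71.8% of cells with an Apoe read (62.1 to 80.3%) and in 47.98% of cells without one (41.3 to 54.8%). That difference of 23.9 points was the widest of the 6302 genes read after thinning in at least 10% of cells on 1 side, among those that can be named and with the same sign in both lanes. Of these 6302 genes 4% were at least 10 points higher and 0.873% at least 10 points lower, and the median gene was 1.56 points higher. In lane 37 the shares were 67.4% (51.5 to 80.9%) and 53.8% (44.4 to 62.96%), with overlapping intervals, and in lane 38 they were 75% (62.1 to 85.3%) and 41.3% (31.8 to 51.4%). The summed levels were 330 and 301.4 RPM in lane 37 and 374.6 and 158.9 RPM in lane 38, so that the cells without an Apoe read differed between the lanes more than the others did. In each of the 4 plate numbers the share was higher in the cells with an Apoe read, by as little as 61.5% against 56.4% and as much as 77.5% against 36.5%. Over the levels of Apoe, Cd63 was read after thinning in 69.8% of the 63 cells with up to 1000 RPM and in 75% of the 40 cells above it, at 360.6 and 353.1 RPM. Within the cells with an Apoe read the levels of the 2 genes had a rank correlation of 0.02 (over all these cells, which share lanes and differ in depth).

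Among the other activated genes Capg, an actin-capping protein, was at 120 against 66.5 RPM and had log2 ratios of 1.01 in lane 37 and 0.77 in lane 38. Its thinned shares of 26.2% and 17.0% had overlapping intervals. Cd9, Cd68 and Ctsz, which resting microglia also express, were nearly equal: Cd9 was at 1277 against 1235 RPM, Cd68 at 1274 against 1256 RPM and Ctsz at 2674 against 2466 RPM.

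**Figure D3:**
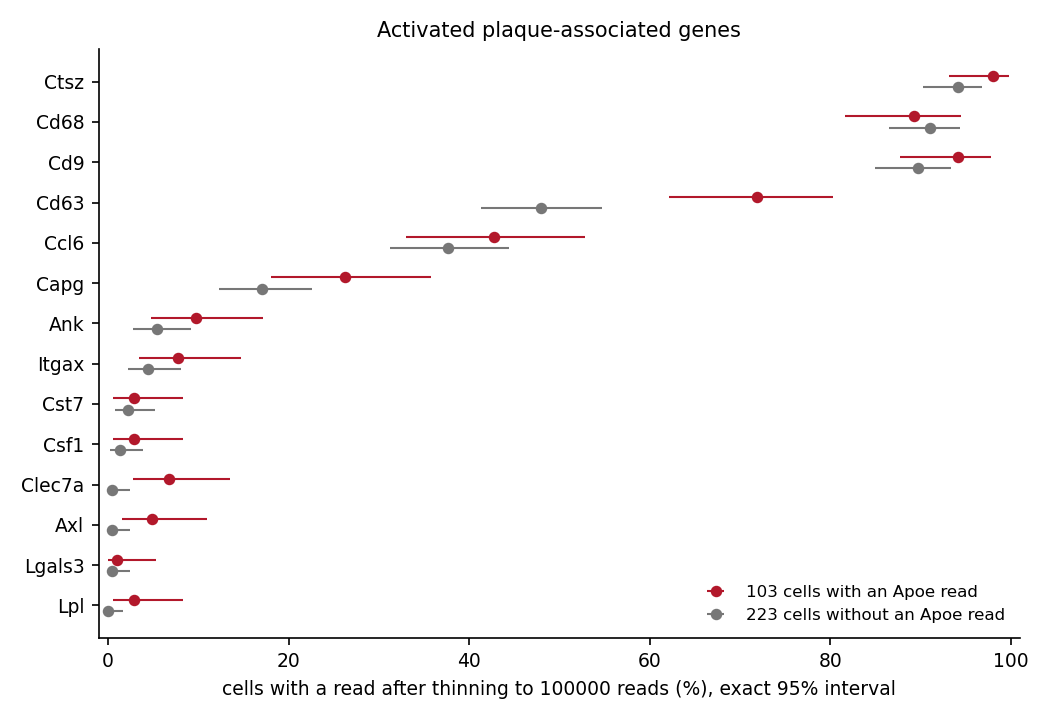
Share of cells with a read after thinning each cell to 100000 reads, for the 14 measured genes of the activated response, in the cells with (red) and without (grey) an Apoe read; bars are exact 95% intervals for counting error. Cd63 is the gene whose intervals are widest apart, at 71.8% and 47.98%, and Clec7a, Axl and Lpl are under 10% on both sides.

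A few cells carried several of these genes at once. They were looked at one by one after the values were seen. The cell with the highest Apoe level, 23932 RPM in lane 38, also had 909 RPM of Clec7a, 1272 of Itgax, 181.4 of Fabp5, 164.9 of Axl and 133.97 of Cst7. Its Cx3cr1 was at 288.5 RPM, the lowest of the cells with an Apoe read, whose median was 11896 RPM, its P2ry12 at 1094, and Tmem119 had no read. It held 0 border macrophage markers. The cells next in Apoe, with 10316 and 8078 RPM, held Clec7a at 239.1 and 421 RPM and kept Tmem119 at 3967 and 4528 RPM. The cell of lane 37 with the highest Apoe, 4644 RPM, held both Clec7a (199.9 RPM) and Axl (18.97 RPM). Of 11 activated genes that resting microglia hardly express, at least 2 were read in 3 cells with (2.91%) and in 1 cell without an Apoe read (0.448%), and none was read in 79 and 200 cells. Of the 7 cells with Clec7a, 1 had a single Apoe read. That cell also held Lpl, at 340 RPM, and was 1 of the 3 cells with at least 2 of these genes. Cells with so few Apoe reads cannot all be told apart from background. By level of Apoe, Clec7a was read in 4 of 40 cells (10%) above 1000 RPM and in 3 of 63 cells (4.76%) up to 1000 RPM. In the cells without an Apoe read it was 0.448%. Not all of these genes were read more often at high Apoe. Above and up to 1000 RPM, Lpl was read in 0 of 40 and 3 of 63 cells. Cst7 was read in 1 and 2 of these cells, and Itgax in 4 and 4.

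Among genes that act on apolipoprotein E or with it, Trem2, its receptor on microglia, was at 2204 against 2097 RPM, and the adaptor gene Tyrobp at 2243 against 2061 RPM. Of 8 genes of the TREM2 chain none passed 2-fold, with a median of 0.10. Plcg2, the phospholipase downstream of the receptor, was at 247.99 against 149.4 RPM, with log2 ratios of 0.71 and 0.78 in lanes 37 and 38 and thinned shares of 58.3% and 43.05%. Lrp1, a large uptake receptor, was at 613 against 499 RPM, and the scavenger receptor gene Scarb1 at 49.9 against 40.6 RPM. Of the 6 measured receptors 5 were above 1, with a median of 0.18. Of these 1 was at least 2-fold higher, beside 10.1% of all genes of at least 1 RPM. Apoc1, Apoc2 and Apoc4, which lie next to Apoe and in macrophages can share its enhancers, had 0 reads on both sides. The neighbours that were measured, Tomm40, Nectin2, Clptm1 and Relb, were all below 1 over both lanes, with a median of -0.47. The median was -1.09 in lane 37 and -0.24 in lane 38, where 1 was above and 3 below 1. Of all 12466 genes of at least 1 RPM, 6932 were below 1 over both lanes.

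Apoe is a target of the liver X receptors, which sense cholesterol surplus and turn on its export. Of 13 measured genes of that list, 10 were above 1, with a median log2 ratio of 0.16, or 0.30 in lane 37 and 0.01 in lane 38. The export pumps Abca1 and Abcg1 were at 489 against 455 RPM and 227.4 against 203.4 RPM. Srebf1 was at 57.5 against 23.5 RPM, in 13 and 27 cells. Cholesterol synthesis showed no common direction: 8 of 17 measured genes were above 1, 3 at least 2-fold higher (Lss, Hmgcs1 and Msmo1) and 4 at least 2-fold lower. Over all genes of at least 1 RPM 10.1% were 2-fold higher and 18.1% lower. Hmgcs1, an early enzyme, had a log2 ratio of 1.56, which was -0.32 in lane 37 and 4.32 in lane 38. Msmo1, a late enzyme, was above 1 in both lanes (1.66 and 1.22) and Srebf2, the factor that turns the pathway on, below 1 in both (-4.51 and -2.21), in 5 and 23 cells.

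Lysosomal genes are abundant in microglia and gave the most even picture. All 22 were measured, 15 were above 1, none passed 2-fold and the median was 0.06, with 0.03 and 0.05 in the lanes. Cathepsin D (Ctsd) was at 5825 against 5335 RPM and cathepsin S (Ctss) at 12422 against 11901 RPM. Complement genes were alike, with C1qa at 5204 against 5090 RPM and a median of 0.04 over 8 genes. Glycolysis had a median of 0.07, MHC class I of -0.07 and MHC class II of 0.19. In the class I group Psmb9, a subunit of the immunoproteasome, was at 49.9 against 91.6 RPM and was read after thinning in 19.4% against 31.4% of cells, lower in both lanes (-11.0 and -12.4 points).

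Interferon, cytokine, immediate early and proliferation genes were rare in these cells. Interferon response genes had a median of -0.44, with 5 of 17 at least 2-fold higher and 3 lower. Stat2, which carries the type I interferon signal, was at 62.8 against 14.8 RPM in 14 and 22 cells. Inflammatory cytokines had a median of -0.38, which was -1.28 in lane 37 and 0.55 in lane 38, and Il1a was at 176.3 against 114.6 RPM. Immediate early genes, which dissociation of tissue can raise, had a median of -1.03, from 2 genes above and 8 below 1. It was -2.44 in lane 37 and -0.46 in lane 38, where 3 were above and 7 below. Btg2, the most abundant of them, was at 115.9 against 136.4 RPM, and Junb at 110 against 113.06 RPM. Cell cycle genes were all 8 below 1, with a median of -1.77, but the median was -1.83 in lane 37 and -0.40 in lane 38, where 2 were above and 5 below 1. Mcm5, a helicase subunit for DNA replication, was read in 0 and 12 cells. Mki67 and Top2a, the marks of dividing cells, were each read in 0 cells with and 2 cells without an Apoe read. Zero reads in the cells with an Apoe read allow a share of up to 2.91% by the limit of 3 counts, or 3.52% by the exact interval, so no difference in Mki67 or Top2a was detectable with this number of cells.

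**Figure D4:**
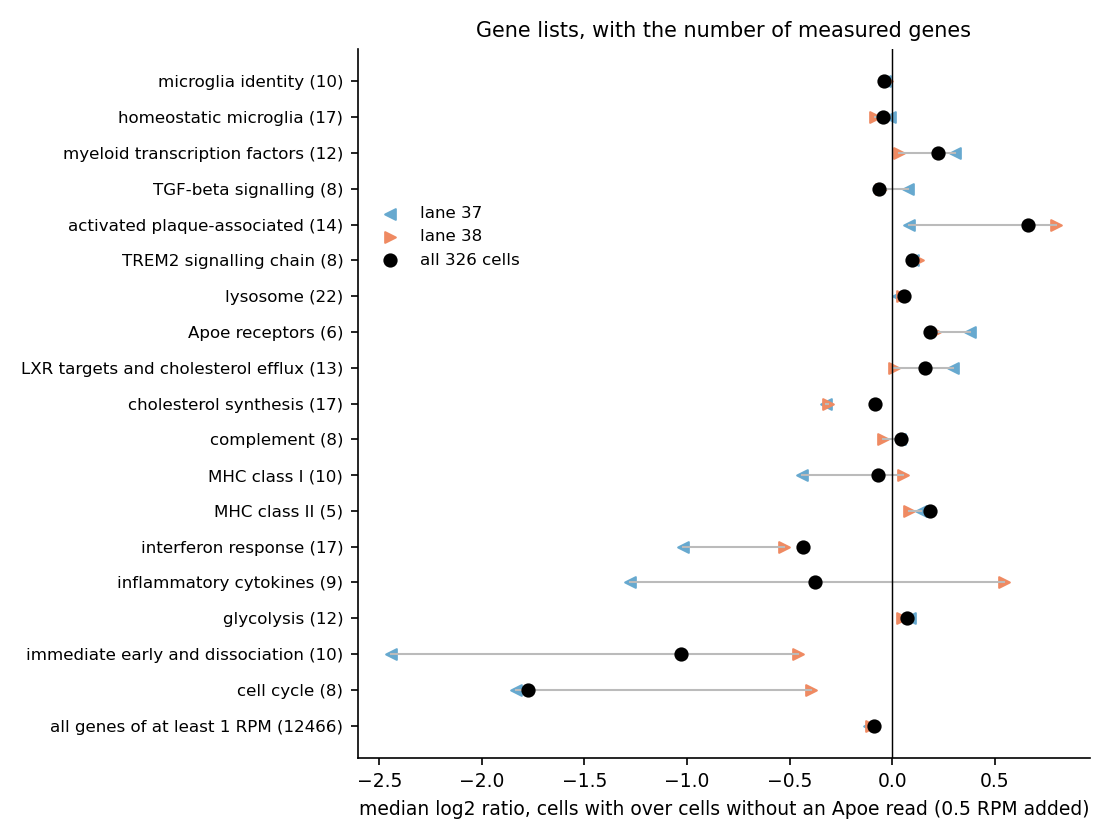
Median log2 ratio (cells with over cells without an Apoe read, 0.5 RPM added) of each gene list in all cells of the group (black) and within lane 37 (blue) and lane 38 (orange), with the number of measured genes in brackets. Lists of abundant genes such as homeostatic and lysosomal genes lie near 0 in both lanes, the activated list lies at 0.08 and 0.80, and lists of rare genes are spread widely.

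Among all genes considered, list members included, those with the highest ratios on the same side of 1 in both lanes were again sparse. Arhgap15, which switches off the small GTPase Rac, headed them at 50.6 against 1.36 RPM, in 11 and 4 cells, and with a thinned share 8.81 points higher. After it came Kdm1b, a histone demethylase, at 59.2 against 6.32 RPM in 17 and 10 cells. Nova1, a splicing factor, was at 25.1 against 3.14 RPM, with 20 cells on each side. The other nine were Tceanc, Snf8, Eva1b, Slk, Fam120c, Tagap1, Zfp523, Ubap2 and Stat2. At the other end stood Zhx3, a zinc finger repressor, at 0.791 against 26.2 RPM in 6 and 29 cells, Zfp26 at 1.48 against 25.5 RPM, and Spidr, a DNA repair scaffold, at 4.22 against 58.1 RPM in 4 and 26 cells. They were followed by Nr2c1, Zfp91, Pomt2, Zfp930, Rb1 (the retinoblastoma gene), Ccdc66, Ahsa2, Map2k6 and Mitd1. One cell held 30.3% of the Arhgap15 reads on the side with Apoe and 90.6% of those of Spidr.

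By the share of cells rather than by reads, the genes that followed Cd63 were read in more cells. Rpl14, a ribosomal protein, was read in 73.8% against 52.5% of thinned cells, and Rpsa, another, in 78.6% against 60.99%. Ppfia4 (20.1 points), Ubl5 (19.3), Rlim (19.1), Ergic3 (19.01), Tmem234 (18.6), Fmnl1 (17.6) and Ociad1 (17.1) complete the group. Fmnl1 is a formin of blood cells that builds actin filaments, and Ergic3 cycles between the endoplasmic reticulum and the Golgi. In the other direction Yme1l1, a protease of the inner mitochondrial membrane, was read in 20.4% against 38.1% of cells, 22.4 points lower in lane 37 and 14.2 in lane 38. Ap3m1, a subunit of the AP-3 coat that sorts cargo to lysosomes, was in 8.74% against 24.7%, and Atrx, a chromatin remodeller, in 36.9% against 52.02%. Thada was lower in all cells but had a log2 ratio of 0.07 in lane 37. Ddx42, Ccnt1, Mir99ahg, Aftph, Thada, Zfp950 and Clock were lower by 12.6 to 13.99 points.

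Within the cells with an Apoe read no gene followed the level of Apoe closely. Over 2929 genes read in at least 25% of them, rank correlations with Apoe ran from -0.34 to 0.37 with a median of -0.001. They are descriptions over cells that share lanes and differ in depth. Among those that can be named and had the same sign in both lanes, Tgoln1, a protein of the trans-Golgi network, was highest. It had 0.37 (0.44 and 0.35 in the lanes), followed by Ikbkb, Rabac1, Zfp592, Mgea5, Vps41, Nbeal1 and Rhoh between 0.30 and 0.26. Lowest were the small GTPase gene Rala with -0.34 and then Nipa2, Fam167b, Nf1, Ap3d1, Camk1, Dazap2 and Mboat7 between -0.30 and -0.27. Cx3cr1 had -0.18, Trem2 0.19 and Ctss 0.23.

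The same division was made in the APP/PS1 groups, where few cells lacked Apoe: 24 cells in cortex and 38 in hippocampus. With so few cells on 1 side, 34.5% of the 12466 genes lay 2-fold or more above and 14.4% below in cortex, and 27.3% and 13.1% in hippocampus. The median log2 ratio of the activated list was 3.33 in cortex and 1.63 in hippocampus, beside 0.66 in the C57BL/6 cells, and that of the homeostatic list -0.29 and -0.30 beside -0.04. Cd63 was at 661 against 250 RPM in APP/PS1 cortex and at 479 against 145.6 RPM in hippocampus, log2 ratios of 1.40 and 1.71 beside 0.62. Clec7a was read in 25.8% of the cortical and 14.9% of the hippocampal APP/PS1 cells with an Apoe read, where the C57BL/6 cells with an Apoe read had it in 6.80%. Differences between the groups were not tested, since each is 1 sample.

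**Figure D5:**
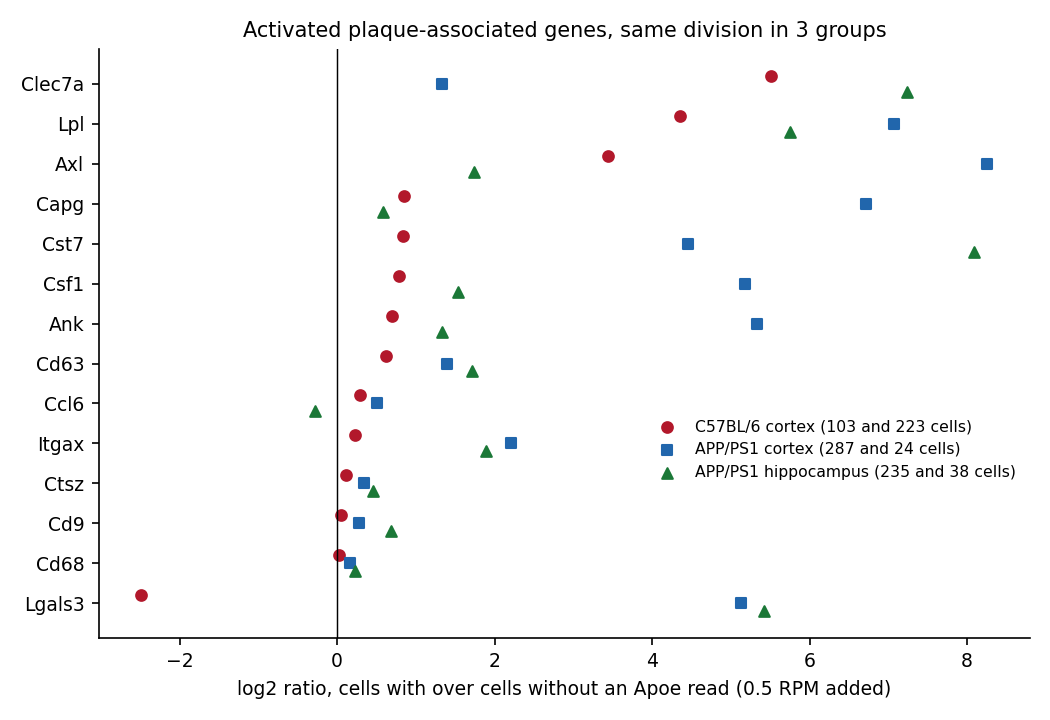
Log2 ratio of each measured gene of the activated response (cells with over cells without an Apoe read, 0.5 RPM added) in C57BL/6 cortex (red), APP/PS1 cortex (blue) and APP/PS1 hippocampus (green), with the cells on each side in brackets. Ratios are above 0 in all 3 groups except for Lgals3 in C57BL/6 (-2.49) and Ccl6 in APP/PS1 hippocampus (-0.28), and the APP/PS1 values rest on 24 and 38 cells without an Apoe read.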

How the data were processed

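Raw read counts per gene and cell, as the authors deposited them, were used with no correction; the submitters' processing notes list the tools Seurat 2.3.1, STAR 2.5.2 and featureCounts 1.5.1 with mm10, and no role for any of them. On strand in counting the sources used here say nothing. Antisense partners, overlapping genes and close paralogs can therefore share reads. Of 326 C57BL/6 cells, 103 had an Apoe read and 223 had none; beside them stood 313 C57BL/6-ApoeKO cells and 311 cortical and 273 hippocampal APP/PS1 cells. All 326 (241536311 reads, 116605 to 1320640 per cell) have totals equal to the labels', and 0 pairs were identical. For each side, reads of a gene were added up and divided by all reads of its cells; lists took genes with at least 1 RPM. Thinning drew 100000 reads per cell without replacement. Coordinates are from GENCODE vM21 on GRCm38, the assembly of mm10. Named were list members and, each with the same sign in both lanes, the 12 highest and 12 lowest ratios (at least 20 RPM, 10% of cells), the 10 widest share differences each way and the 8 highest and lowest correlations; predicted genes, ribosomal RNA and mitochondrial genes were counted but not named. The members and lists were chosen with earlier results of these data known. Python 3.11.15, numpy 2.4.6 and scipy 1.17.1 were used. The code for the ratios was checked on simulated counts with set changes, in which every gene was present in the same share of cells. Such counts are unlike these data and cannot say how many genes pass 2-fold here without a true difference. Alternatives were lanes, plate numbers, Apoe thresholds, thinning, weights, totals, depth, marker-positive cells, pseudocounts and filters. The APP/PS1 groups of 18 months were not analysed here. Some genes of the lists were counted but are not reported here by name.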

Additional observations from a re-analysis of the deposited data

Results flagged for a closer look

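For 5 lists of at least 3 measured genes the medians of log2 ratios (cells with over cells without an Apoe read) had 1 sign in C57BL/6 cortex, in all cells and in each lane, and the opposite sign in both APP/PS1 groups. Lists whose sign differed between lanes 37 and 38 are not among them. The median over all genes of at least 1 RPM differed in sign in the same way, with -0.09 in C57BL/6 cortex, 0.24 in APP/PS1 cortex and 0.10 in APP/PS1 hippocampus. The differences were not tested, since each group is 1 sample, and the APP/PS1 values rest on 24 and 38 cells without an Apoe read. The 4 measured neighbours of Apoe had a median of -0.47 in C57BL/6 cortex, 0.017 in APP/PS1 cortex and 0.76 in APP/PS1 hippocampus. Cholesterol synthesis had -0.086, 0.085 and 0.42 in the same order, and the myeloid transcription factors 0.22, -0.23 and -0.22. For cell cycle genes the medians were -1.77, 1.92 and 1.18. For the 6 measured astrocyte markers they were -0.12, 1.63 and 3.23.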

How the results depend on the processing

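Over 22 alternatives, 89 results gave 1744 values. Of these, 1680 stayed within the spread over plate numbers or within 1.5 times the count, and 61 moved further. The other 3 changed sign, which was counted only for genes at least 2-fold apart in all cells. They were Thada (0.072) and Hmgcs1 (-0.32) in lane 37 alone and Lgals3 (2.06) in lane 38 alone. Smaller ratios and list medians also crossed 0 and are not among the 3. For list medians the spread, a standard deviation over plate numbers, ran from 0.047 (microglia identity) to 2.95 (cell cycle). Where it was wide, staying within it says little about stability. Within it the cytokine median ran from -1.28 to 0.55 and the cell cycle median from -3.09 to -0.37. Itgax was below 0 in 5 of 19 alternatives and Cd9 in 4 of 19. The MHC class II median was below 0 in 7 of 21, and the homeostatic median above 0 in 1 of 22. Of the genes considered, 10.1% were past 2-fold higher and 11.99% lower in lane 37 (622 and 742 genes), and 8.27% and 11.4% in lane 38 (511 and 705 genes), with fewer cells in each. Higher were 6.47% without plate number 3 and 6.29% without plate number 4, where 9.27% were lower. Lower were 9.14% (524 genes) without each gene's cell with most reads, and higher were 2.32% (140 genes) with 5 RPM added. A minimum of 5 RPM with no share of cells gave 9.11% and 12.9% (935 and 1320 genes), and one of 50 RPM gave 2.57% and 3.04%. The activated median was 0.083 in lane 37, 0.31 without plate number 4, 0.33 without each gene's top cell and 0.20 from 50 RPM, where 6 genes were left; it was positive under all 22 alternatives. In lane 37 alone 26.5% of the cells had an Apoe read. The cause of these differences was not tested. Leaving out the cell with the highest Apoe level, and holding genes at 0 at 3 reads, were chosen after seeing the data. No paired analysis was possible because each group is 1 sample and no result comes from a test.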
